A study of Mus musculus with 8 samples.

Results

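The regions described here are ATAC-seq peaks that were tall in Chd7 WT granule neuron progenitors (GNPs) and had no counterpart in the peak list of either Chd7 genotype with a deletion. ATAC-seq reads out open chromatin, since the Tn5 transposase inserts adapters mainly where DNA is not wrapped into nucleosomes. A peak was a member when it lay on an autosome, had a pileup of 18 or more overlapping tags at its summit in the WT list, and had no peak of the mutant list and none of the het list within 300 bp. Of 68810 tall autosomal WT peaks, 951 were members, so that the percentage called was 1.38. The whole WT list held 152984 peaks. Members were selected on the lists themselves, by the WT pileup and the absence of a call elsewhere. Their height and their lack of a partner are therefore given as a description and support nothing.

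GNPs were isolated from cerebella of mice at P7, with the strain given as C56Bl6/J in the labels and as C57BL/6N in the study's methods. In the study the WT cells carry 2 floxed Chd7 alleles without Cre (Chd7 f/f), the mutant cells are Atoh1-Cre::Chd7 f/f and the het cells are Atoh1-Cre::Chd7 f/+, so that all 3 genotypes share at least 1 floxed allele and Cre is present in the last 2 groups only. Atoh1-Cre acts in the granule lineage, and some Chd7 protein remains in the posterior lobe of the cerebellum, where Cre recombination is probably weaker. There were 3 WT, 3 mutant and 2 het libraries, and the study calls the WT and mutant replicates technical. Each list was called on the pooled libraries of 1 genotype. No value below therefore has a replicate error, no difference between genotypes could be tested, and intervals are Wilson 95% intervals that cover counting error over peaks only.

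Chd7 is an ATP-dependent chromatin remodeller that moves nucleosomes and is found mainly at enhancers. GNPs divide in the outer layer of the developing cerebellum under Sonic hedgehog signalling and express Atoh1, Zic1 and Pax6. They then leave the cell cycle and become granule neurons, which form adhesion contacts, synapses and ion channel currents. Enhancers that drive these steps lie in introns and between genes, often as groups of open sites around the same gene.

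The WT and mutant lists were of similar depth, with 50394313 and 51030229 tags after filtering, and the het list had 30923002. Tags were longer in WT and het than in mutant, where the length was 76 bp. The WT list held 36 peaks on the Y chromosome, the mutant list 25 and the het list 13. All 8 of the granule progenitor markers examined had a peak within 1 kb of a start site in each list. The same was true of all 8 astroglial, all 5 endothelial and all 3 unipolar brush cell markers, whereas 5 of 8 oligodendrocyte, 3 of 5 microglial, 9 of 10 Purkinje cell and 7 of 7 interneuron markers had one in WT. Open start sites were thus found at markers of other cell types as well. Of 22 tall WT peaks assigned to Chd7, 21 had a mutant partner and 0 were members. Over all 68810 tall WT peaks, 92.4% had both partners, 5.74% a mutant partner alone, and 1.38% were members. The counts at Chd7 are near these shares and are no result about that gene.

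Sequence from 100 bp before to 100 bp after the summit is printed for members with the highest pileup and for a member in Slc8a1, a gene of the Chd7-activated list described further on, to show what such sites look like. They are from mm10 (GRCm38), plus strand, and capitals mark matches on either strand to an E-box of the CAGATG kind or of the CAGCTG kind, the sort of site that proneural factors such as Atoh1 and Neurod1 bind. Windows inside untranslated exons were left out, among them the one in the last exon of Sox9. Of the windows printed here, only the one in Ptprk holds a match to either of these 2 kinds. The 2 windows from the first 3.2 Mb of chromosome 9 are low in GC.
Start of chromosome 9, first window (chr9:3030779-3030979): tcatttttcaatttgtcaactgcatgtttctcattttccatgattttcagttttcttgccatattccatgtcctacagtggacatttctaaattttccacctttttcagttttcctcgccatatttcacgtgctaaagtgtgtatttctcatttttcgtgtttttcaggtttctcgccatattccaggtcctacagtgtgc
Beside Pou3f2 (chr4:22491382-22491582): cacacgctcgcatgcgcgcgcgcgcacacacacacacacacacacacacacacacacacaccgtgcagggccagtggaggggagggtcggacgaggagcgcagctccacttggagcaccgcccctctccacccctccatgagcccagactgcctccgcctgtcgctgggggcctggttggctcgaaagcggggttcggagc
Start of chromosome 9, second window (chr9:3017443-3017643): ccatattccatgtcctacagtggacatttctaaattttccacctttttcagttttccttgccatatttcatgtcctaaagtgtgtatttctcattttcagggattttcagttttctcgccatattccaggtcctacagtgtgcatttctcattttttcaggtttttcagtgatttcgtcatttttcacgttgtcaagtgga
Ptprk intron (chr10:28078393-28078593): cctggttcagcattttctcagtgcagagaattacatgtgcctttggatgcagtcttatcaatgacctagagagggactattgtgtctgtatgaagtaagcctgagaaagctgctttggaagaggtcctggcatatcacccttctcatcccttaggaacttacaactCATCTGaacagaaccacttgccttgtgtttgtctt
5930403N24Rik, beside Marcks (chr10:37139822-37140022): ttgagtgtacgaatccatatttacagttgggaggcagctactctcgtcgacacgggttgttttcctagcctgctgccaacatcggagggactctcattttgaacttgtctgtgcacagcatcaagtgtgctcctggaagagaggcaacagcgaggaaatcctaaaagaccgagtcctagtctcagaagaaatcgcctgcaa
Slc8a1 intron (chr17:81671130-81671330): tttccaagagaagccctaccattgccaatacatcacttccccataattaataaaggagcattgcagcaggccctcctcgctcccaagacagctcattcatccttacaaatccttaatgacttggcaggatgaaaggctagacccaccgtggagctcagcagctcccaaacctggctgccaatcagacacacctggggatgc

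The tallest members stood in regions with much signal around them. The highest pileup, 50, was at chr9:3030819-3030908, and a pileup of 44 was found on the same chromosome at chr9:3017487-3017586. Both lie close to the centromere, where mouse chromosomes carry satellite repeats. Repeat-masked bases made up 94.0% of the first window and 100% of the second, and 100% and 39.7% of their words of 76 bases recurred in the genome, in up to 20 and 14 copies. Reads from these windows can thus come from other places, and their pileups are uncertain. The other members of pileup 40 or more were beside Pou3f2, which encodes a transcription factor of developing neurons (46), in an intron of Ptprk, a receptor tyrosine phosphatase (42), at the start of the non-coding 5930403N24Rik beside Marcks (42), and in the last exon of Sox9 (40). Within 10 kb of the Ptprk member the tallest other WT peak had a pileup of 97, and the mutant list gave 90 at that peak. For Marcks these values were 100 in WT and 104 in mutant, and for Sox9 73 and 69. The mutant list thus held the neighbour of each of these 3 members at a like height, and the member itself was not listed.

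The remaining members among the 20 of highest pileup had pileups from 34 to 39. They lay in or beside Ptprd, another receptor phosphatase, Mex3b, an RNA-binding protein gene, the non-coding A830082K12Rik, Carnmt1, Tmtc2, the Polycomb gene Eed, E330009J07Rik, Acd with Carmil2 and Pard6a, Kctd12, a gene of a GABA-B receptor subunit partner, Limch1, Plod2 and Zfpm2, a GATA cofactor gene. A pair of them were assigned to no gene, with Nova1 and Gm49223 as the nearest start sites at 343 kb and 295 kb. The Eed member had a pileup of 36 with a neighbour of 76 in WT and 84 in mutant. The Mex3b member had 39 with a neighbour of 102 in WT and 101 in mutant. In each of the 20, the tallest WT peak within 10 kb was also in the mutant list.

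Over all members the pileup was low within the range that the rule allows, with a median of 20 and 90% at 27 or less. Tall WT peaks with partners in both other lists had a median of 31. As shown by the plot of shares by pileup, 371 of 8390 WT peaks of pileup 18 or 19 were members (4.42%, 4.0 to 4.88), against 123 of 10645 at 25 to 29 (1.16%, 0.969 to 1.38) and 5 of 7746 at 40 to 49 (0.0645%). Of 7854 WT peaks of pileup 60 or more, 0 were members, which allows a share of up to 0.0382% when 3 counts are taken as the limit (the Wilson upper bound is 0.0489%). The reverse selection gave more peaks. Of 78135 tall autosomal mutant peaks, 2002 had no WT and no het peak within 300 bp, a percentage called of 2.56. In every bin from 18 to 39 the mutant share was the higher one, for example 819 of 9878 at pileup 18 or 19 (8.29%, 7.76 to 8.85). The intervals cover counting error over peaks only and test no difference between genotypes. The mutant list was also the longest, with 174407 peaks against 152984 in WT and 106974 in het. Mutant peaks were thus matched against a shorter list than WT peaks were. Neither list length nor the difference in tag length was tested as a source.

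**Figure D1:**
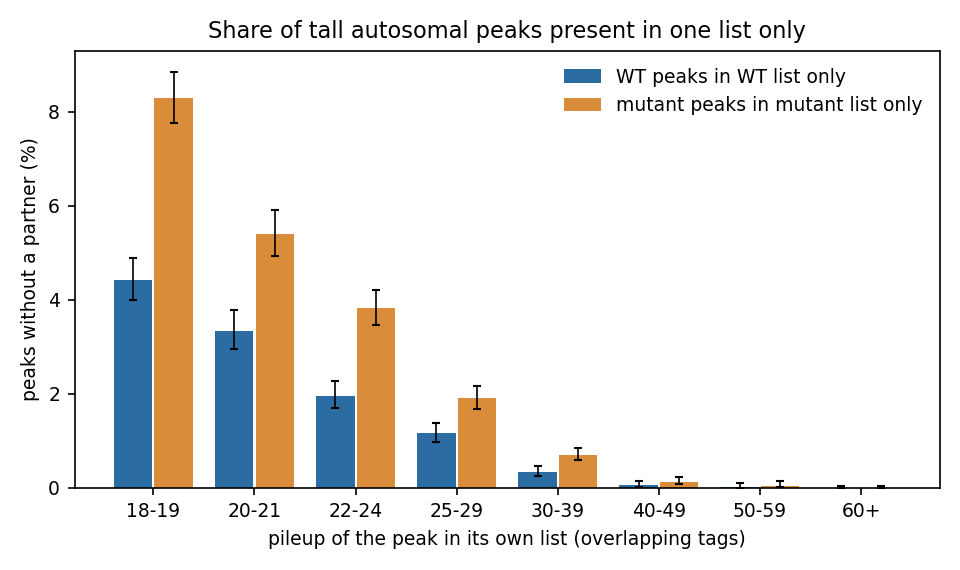
Percentage of tall autosomal peaks without a partner within 300 bp in either other list, by pileup in their own list, for WT peaks (blue) and mutant peaks (orange). Error bars are Wilson 95% intervals over peaks. The WT share goes from 4.42% at pileup 18 or 19 to 0 of 7854 at 60 or more.

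At the edge of the rule, 215 members had a pileup of exactly 18, with a median fold enrichment of 4.13 and a median width of 121 bp. A further 255 peaks of pileup 17 lacked both partners and were left out, with a median fold enrichment of 4.04 and a median width of 129 bp. On the distance side, 99 members had their nearest partner within 400 bp (median fold enrichment 3.47), and 109 tall peaks were left out for a partner more than 200 and up to 300 bp away (3.27). Members of pileup 18 with the lowest -log10 q lay near the start of Nefm (1.52), 28.6 kb from Api5 (1.61) and beside Fmnl2 and Gm26603 (1.70). The highest value, 11.0, was shared by 12 members with the lowest background of the list. Among them were members 38.2 kb from Gm9958, 419.8 kb from Gnpda2 and in an intron of Fstl5, which encodes a secreted follistatin-like protein. Peaks of 1 pileup thus differed widely in how far they rose above their surroundings.

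Fold enrichment, the ratio of pileup to local background with 1 added to both, had a median of 3.68 in members (lowest 1.88, highest 12.3). It was 7.69 in tall peaks with both partners. Members were chosen on pileup and missing calls, so the gaps in this paragraph are a description and support nothing. The background that these values imply had a median of 4.797 tags in members and 3.25 in the peaks with both partners. It was at least 2 times the lowest background of the WT list in 746 of 951 members (78.4%, 75.7 to 80.9), against 47.3% of peaks with both partners. Members were also narrow. Their median width was 124 bp against 415 bp, 849 were under 200 bp wide, and 76 had the smallest width in the list, 90 bp, compared with 90 of 63599 peaks with both partners.

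Absence from the mutant list does not give the mutant signal there, only that it was not called. At a given background, the lowest pileup that the mutant list contained is a measure of what could have been called. The background used is that of the WT list at the member, since the mutant background there is not known. No such value was computed for the het list. At the WT backgrounds of the members this lowest mutant pileup had a median of 12 (range 7 to 39). The WT pileup, scaled to the mutant tags, was a median of 1.66 times this value. It was under 1.5 times in 292 members (30.7%), between 1.5 and 2 times in 415 (43.6%) and 2 times or more in 244 (25.7%, 23 to 28.5), among them 15 at 3 times or more. For tall peaks with both partners the median was 3.23 times. The ratio is built from the pileup, and members were chosen on pileup and a missing mutant call. A lower ratio in members therefore comes with the rule and is no result about them. In the reverse selection, the mutant pileup was 2 times or more the lowest WT pileup in 564 of 2002 peaks (28.2%, 26.2 to 30.2). If the mutant background was like that in WT, a mutant pileup well above 0 could still have gone uncalled at most members. The plot of pileup against background shows this.

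**Figure D2:**
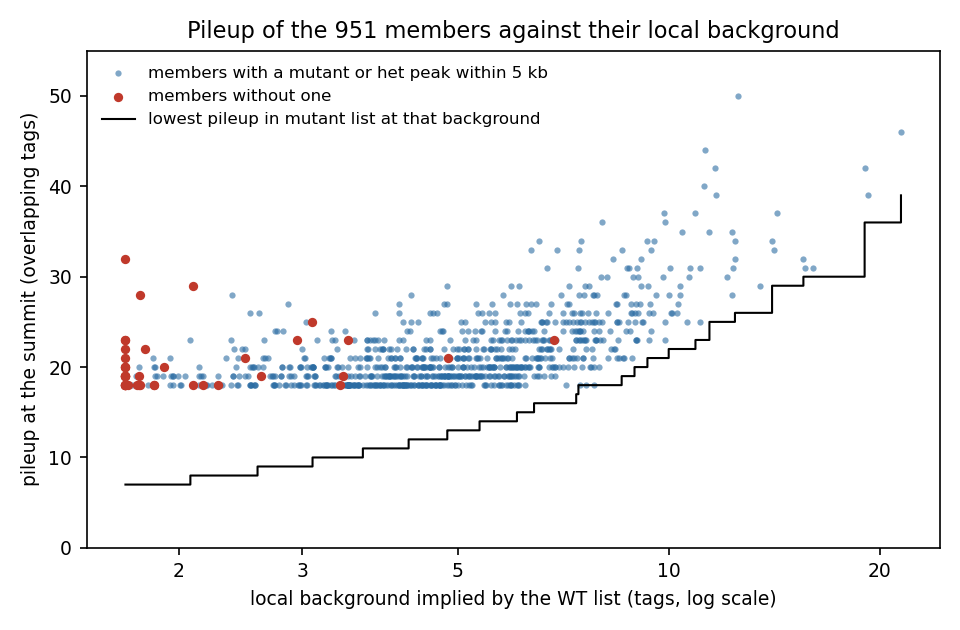
WT pileup of each of the 951 members (vertical axis, overlapping tags) against the local background implied by the WT list (horizontal axis, tags, log scale). Red points are the 41 members with no mutant or het peak within 5 kb, blue points are the others, and the black line is the lowest pileup found in the mutant list at that background, from 7 to 39.

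Most members lay close to peaks that the mutant and het lists did contain. A mutant peak lay within 1 kb of 397 members (41.7%) and within 5 kb of 905 (95.2%, 93.6 to 96.4), at a median distance of 1244 bp. The median distance to a het peak was 1529 bp. Another WT peak lay within 10 kb of 921 members (96.8%, 95.5 to 97.8), compared with 80.5% of the tall peaks with both partners. A WT peak of pileup 40 or more lay in that range for 614 members (64.6% against 25.6%). Members were chosen on missing calls, which depend on the local background, and the sets were not matched for background or height. These gaps are therefore a description and support nothing. The tallest WT neighbour was higher than the member itself in 848 cases (89.2%). Members were low through the rule, so this share is not compared with that of other peaks.

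**Figure D3:**
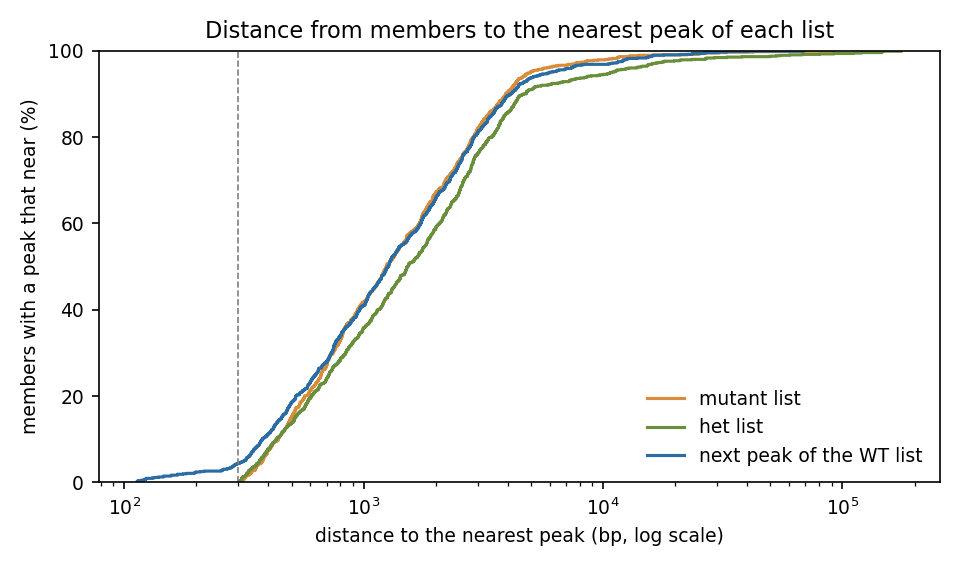
Cumulative percentage of the 951 members (vertical axis) with a peak of the mutant list, of the het list, or another peak of the WT list within the distance on the horizontal axis (bp, log scale). The dashed line marks 300 bp, below which no member has a mutant or het peak by the rule; the mutant curve reaches 95.2% at 5 kb.

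The neighbours themselves were shared. Of 2871 WT peaks within 10 kb of members, 2571 had a mutant partner within 300 bp (89.6%, 88.4 to 90.6) and 2224 a het partner (77.5%), counting a peak once for each member it neighboured. Around tall peaks with both partners these shares were 87.9% and 74.4%. The tallest WT neighbour overlapped a mutant peak for 903 members. Its pileup was higher in the mutant list for 489 of them, lower for 357 and equal for 57. The median ratio was 1.02, with 80% of ratios between 0.823 and 1.21. These counts and ratios are not scaled to tags, of which the mutant list had 1.01 times as many. Where several mutant peaks overlapped a neighbour, the highest was taken, here and below, which can only raise the mutant value. On the log2 scale and scaled by tags, the median mutant to WT difference of neighbours within 10 kb was 0.03 at members and 0.07 at tall peaks with both partners. These values exist only where a mutant peak was called, so neighbours not called in mutant are missing from them. The neighbours that did overlap a mutant peak were on the median not lower in the mutant list.

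**Figure D4:**
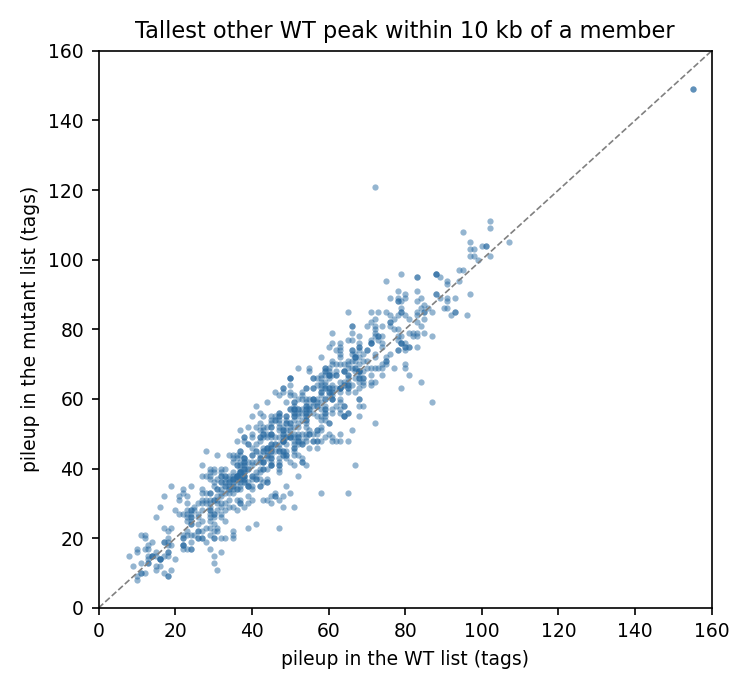
Pileup of the tallest other WT peak within 10 kb of a member, for 903 members. The horizontal axis gives the WT list and the vertical axis the highest mutant peak that overlaps that WT peak. Both are in tags and not scaled to depth. The dashed line marks equal pileups, and the points scatter around it with a median ratio of 1.02.

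Within 10 kb of each other, 95 members formed 47 runs, 46 of 2 members and 1 of 3. The run of 3 lay in Celf2, an RNA-binding splicing factor gene, with pileups of 31, 24 and 18. In 8 runs the gap was under 300 bp, in Sphkap (23 and 18), Pcdh15 (18 and 26), Mier2 (24 and 19), Nfic (19 and 18), Rbm20 (23 and 26), Kif16b (20 and 29), Limch1 (34 and 23) and a site between genes (19 and 20). Other runs included those in or beside Wnt10a, Kif26b, Hint3, Pdk2, Grn and Fam171a2, Flrt2, Nfil3, Adamts6, Il3ra, Kctd12, Celf4, Cxxc5, Rnf165, Pax6 and Paupar, Elp4, Ralgapa2, Speer4cos, Ppp2r2c, Ttc28, Gm32585, Slc41a3, Tspan9, Sipa1l3, Slc17a7 and Aldh16a1, Dbp, Crtc3, Carmil2 and Enkd1, Gse1, Elavl3 and Opcml. Some further runs were assigned to no gene. Members of such a run may not be independent of each other, and whether they share an open region was not tested.

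By place, 451 members were in introns (47.4%, 44.3 to 50.6), 275 between genes (28.9%), 153 within 1 kb of a start site (16.1%, 13.9 to 18.6) and 72 in exons (7.57%, 6.06 to 9.43). Tall peaks with both partners were in introns in 35.6%, between genes in 33.2%, at start sites in 27.4% and in exons in 3.86%. Introns and exons thus held a larger share of members, and start sites a smaller one. Members were lower and narrower, and the sets were not matched for height or width, here or in the sequence comparisons below. How far this sets the gaps was not tested. The gap at start sites depended on the distance allowed, with 9.25% of members (7.57 to 11.3) and 23.7% of peaks with both partners within 500 bp, and 27.8% (25 to 30.7) and 31.6% within 2 kb. The share of tall WT peaks that were members was 0.955% to 1.67% on the individual autosomes. In all, 843 genes had at least 1 member, and 15 had 3 or more. Gm20388, a very long annotated locus that spans other genes, Gse1 among them, had 7 members among 278 tall peaks, Celf2 had 5 of 36, Fgfr2, a fibroblast growth factor receptor gene, 4 of 126, and Elavl3, a neuronal RNA-binding protein gene, 3 of 8.

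**Figure D5:**
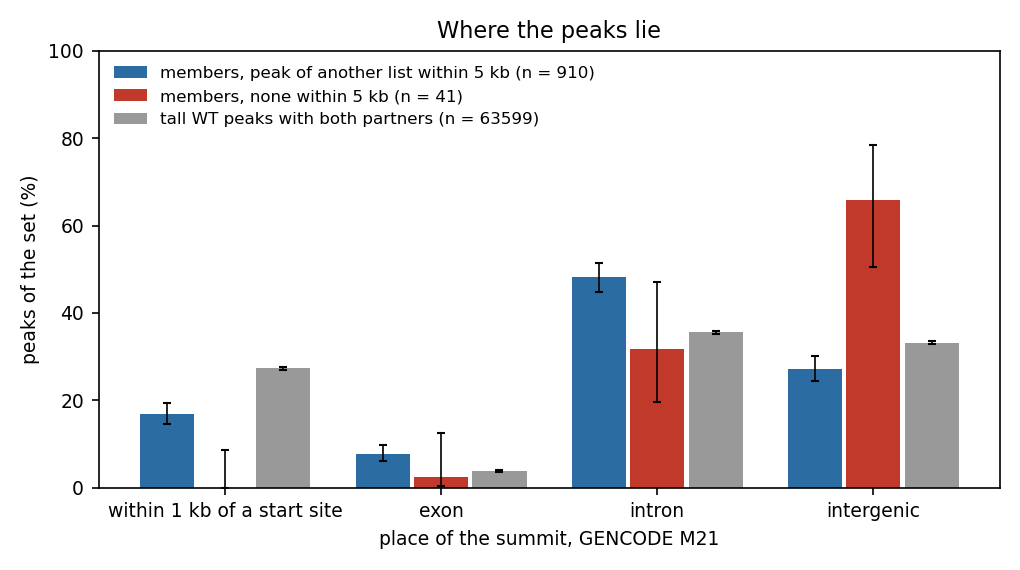
Percentage of peaks (vertical axis) by place of the summit (horizontal axis) for the 910 members with a mutant or het peak within 5 kb, the 41 members without one and the 63599 tall WT peaks with both partners, with Wilson 95% intervals over peaks. Of the 41, 27 lay between genes and 0 within 1 kb of a start site.

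The windows of members had a median GC content of 51.7%, against 53.7% in tall peaks with both partners. The order turned over the whole peak, where the medians were 53.7% in members and 52.8% in the others, and held in windows of 250 bp on each side (47.9% and 50.5%). More than 50% of the window was repeat-masked in 42 members (4.42%, 3.28 to 5.92) and in 1.53% of the peaks with both partners. Every word of 76 bases in the window, the tag length of the mutant list, was found once in the genome for 930 members (97.8%, 96.6 to 98.6). In tall peaks with both partners this share was 99.2%. A word of 76 bases recurred, while none of the longer tag length did, in 14 members (1.47%, 0.879 to 2.46). The share was 0.642% in the peaks with both partners. Such words were thus few in both sets, with the larger share in members. Whether the tag length set which peaks were called was not tested.

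Of 17 motifs searched on both strands in these windows, none of which contains another, the share with CAGATG was 35.2% in members (32.3 to 38.3) and 29.8% in all 68810 tall WT peaks. Away from start sites by more than 1 kb the shares were 37.2% and 36.0%, so that the gap was smaller there. The same held for the Sp and Klf motif GGGCGG (8.94% of members and 18.5% of all, 6.77% and 7.49% away from start sites) and for the Ets motif CCGGAAG (1.58% and 3.87%, 1.38% and 1.33% away from start sites). The NFI motif TTGGCA kept its gap, with 17.9% of members (15.6 to 20.4) and 22% of all, and 19.5% (16.9 to 22.4) and 26.4% away from start sites. For CAGCTG the shares were 24% of members (21.4 to 26.8) and 25.4% of all, which is inside the interval, and 23.6% (20.7 to 26.6) and 28.7% away from start sites. TGACAG, the Meis and Pbx motif, was in 26.7% of members (23.7 to 29.9) and 23.6% of all peaks away from start sites. For the CTCF core AGNNGGCGC these shares were 2.88% (1.93 to 4.29) and 4.73%. A match is a run of letters and was not tested as a binding site.

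Genes with lower expression came from lists that the study chose on cells of the same genotypes, so they are not independent evidence. By overlap with the gene, its 5 kb upstream or its 1 kb downstream, 53 members were assigned to these genes. Of 151 genes lower in mutant GNPs, 142 were matched to the annotation, and 18 of them had a member. These 19 members were 1.83% (1.17 to 2.83) of the 1041 tall WT peaks in the list, against 1.38% of all tall WT peaks, which is inside the interval. The other list holds the genes activated by Chd7 and Top2b in cultured granule neurons that also had a higher level in neurons than in progenitors, and not all genes that both activate. Of these 203 genes, 197 were matched and 37 had 46 members, or 2.02% (1.51 to 2.68) of 2282 tall peaks. The lower bound for the latter lies above 1.38%, but the interval takes neighbouring peaks as independent. Peaks of a list were not matched to all tall peaks for place, height or width, here or for the lists below. Introns held 47.4% of members and 36.2% of all tall WT peaks. How far place sets the share of a list was not tested.

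In the genes lower in mutant GNPs, Ptprk had 3 intronic members with pileups of 42, 23 and 20. Around the member of pileup 23 the tallest WT neighbour had 64 tags in WT and 55 in mutant. Slc8a1, a sodium and calcium exchanger gene, had a member of pileup 31 whose background was high (9), so that the fold enrichment was 3.2.

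Adgrb3, an adhesion receptor gene of synapses, had 2 members, of 24 and 18 tags, and the taller of them was at 2.43 times the lowest mutant pileup. Nkain3 had a member of pileup 24 (2.03 times), Amph, which acts in synaptic vesicle endocytosis, one of 24 (1.74 times), Csrnp3 one of 21 (1.93 times) and Cadps2, which primes dense-core vesicles, one of 23 in a background of 7.86 (1.29 times). The member shared by Ifi203 and Mndal at their start sites had 22 tags. Hs3st5, Thrb and Igsf11 had members of 18 tags each and Dach1 one of 19, and the member at Carmil2 and Pard6a was among the 20 tallest. The ratio to the lowest mutant pileup ranged from 1.29 to 2.43 over the members of this list named here.

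Members assigned to the Chd7 and Top2b list alone stood out more from their background in a few genes. Lrrc4c, a synaptic adhesion gene, had 2 intronic members. The first had 26 tags, a fold enrichment of 7.5 and 2.93 times the lowest mutant pileup, with its nearest mutant peak 539 bp away. The other had 21 tags, a fold enrichment of 8.21 and 3.04 times, with a mutant peak 4837 bp away. Kctd8, an auxiliary GABA-B receptor subunit gene, had a member of 23 tags at 7.79-fold enrichment and 2.91 times. Cadm2, a cell adhesion gene, and Fstl5 had members of 18 tags at 2.6 times the lowest mutant pileup of 7, and neither had a mutant or het peak within 5 kb. The background implied at the members of these 4 genes was 2.6 tags or less, below the median of members.

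The other genes of that list had members at lower ratios. Ccser1 had 3 members (33, 21 and 18 tags), Celf4 had 3 (21, 20 and 20), and Ptprd had 2 (39 and 19), as did Lgr5, a Wnt pathway receptor gene (26 and 18). Single members were found at Zfpm2 (34), Cnksr3, Nrxn3, Zfp697 and Mtcl1 (25 each), 8430419K02Rik (24), Nbea (23), Nav3 and the progenitor transcription factor gene Meis1 (22 each), Arhgef7 and Kcnmb4os2 (21 each), Tnik, Ppp3ca, Gabra2 and Zmat4 (20 each), Ank2 (19), and Pak1 and Gnao1 (18 each). Among these single members the ratio to the lowest mutant pileup ran from 1.27 at Cnksr3 to 2.25 at Zmat4.

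Granule lineage and neuronal genes outside the study's lists held few members. Of 384 tall peaks in 32 granule neuron differentiation genes, 9 were members (2.34%, 1.24 to 4.39). The tallest were in Pax6 (33), in Cntn2, an adhesion gene of parallel fibres (24), and in Cadps2 (23). In 31 progenitor and hedgehog pathway genes, 5 of 176 were members (2.84%, 1.22 to 6.48). Among them, the Atoh1 member had 31 tags over a background of 16, a fold enrichment of 1.88, and the lowest mutant pileup there was 30. Its tallest WT neighbour within 10 kb had 72 tags in WT and 121 in the overlapping mutant peak. Zic1 and Zic4 shared a member of 28 tags, and Sox4 had one of 25.

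Adhesion genes had 22 members of 1234 tall peaks (1.78%, 1.18 to 2.68), the tallest in Ptprd (39) and Flrt2 (32 and 28). Axon guidance genes had 9 of 489 (1.84%, 0.971 to 3.46), the tallest in Robo2 (30), Ephb2 (26) and Epha5 (26). Ion channel genes had 9 of 598 (1.51%, 0.794 to 2.84), the tallest in Kcnj6 (28), Kcnc1 (23) and Scn2a (22). In marker genes of other cell types there were 2 members for astroglia, Sox9 (40) and Slc1a3 (20), and 1 each for oligodendrocytes, Pdgfra (23), for unipolar brush cells, Otx2 (22), and for microglia, Cx3cr1 (19). Purkinje cell, interneuron and endothelial markers had 0, out of 57, 23 and 20 tall peaks. Each of these list intervals includes 1.38%, except those of the Chd7 and Top2b list, the astroglial markers and the granule progenitor markers. Astroglial markers had 2 of 33 (6.06%, 1.68 to 19.6). In the 8 granule progenitor markers, 4 of 37 tall peaks were members (10.8%, 4.29 to 24.7), at Pax6, Atoh1 and Zic1. The ratio to the lowest mutant pileup was 1.05 at Atoh1, 1.11 and 1.86 at the Pax6 members and 1.29 at Zic1. At a ratio near 1, a missing call says little about the mutant signal.

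A small set of members lay far from peaks of the other lists. In all, 41 members had no mutant and no het peak within 5 kb, a division made after the values had been seen. The division is by distance to other peaks, and background, fold enrichment and place may come with it. The contrasts in this paragraph are therefore a description and support nothing. The median background of the 41 was 1.76 tags, close to the lowest of the WT list (1.68). Their median fold enrichment was 7.09 against 3.64 in the other 910. Of the 41, 27 lay between genes, 13 in introns, 1 in an exon and 0 near a start site, and their median GC content was 44.8%. More than 50% of the window was repeat-masked in 5 of them, and in 38 every word of 76 bases was found once in the genome. In the reverse selection 180 of 2002 peaks had no WT or het peak within 5 kb (8.99%, 7.82 to 10.3), against 4.31% of members (3.19 to 5.80).

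The 5 members whose pileup was furthest above the lowest mutant one are printed as windows, chosen after their values were seen, with E-boxes in capitals as before. All but the window nearest to AC144945.1 belong to the 41.
Between genes, nearest start site Cdh9 (chr15:16639738-16639938): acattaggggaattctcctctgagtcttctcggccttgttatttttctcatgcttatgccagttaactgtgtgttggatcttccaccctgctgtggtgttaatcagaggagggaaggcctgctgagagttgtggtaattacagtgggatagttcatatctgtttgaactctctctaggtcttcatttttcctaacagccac
Between genes, nearest start site 4930474H20Rik (chr14:90323654-90323854): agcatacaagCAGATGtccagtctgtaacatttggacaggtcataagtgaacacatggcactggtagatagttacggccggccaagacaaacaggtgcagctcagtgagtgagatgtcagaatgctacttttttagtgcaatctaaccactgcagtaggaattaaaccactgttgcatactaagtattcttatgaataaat
Fam19a2 intron (chr10:123579096-123579296): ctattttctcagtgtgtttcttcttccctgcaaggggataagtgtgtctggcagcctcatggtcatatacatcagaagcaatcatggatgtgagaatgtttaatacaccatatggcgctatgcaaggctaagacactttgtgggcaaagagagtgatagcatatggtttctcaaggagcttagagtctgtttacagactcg
Between genes, nearest start site AC144945.1 (chr19:49533640-49533840): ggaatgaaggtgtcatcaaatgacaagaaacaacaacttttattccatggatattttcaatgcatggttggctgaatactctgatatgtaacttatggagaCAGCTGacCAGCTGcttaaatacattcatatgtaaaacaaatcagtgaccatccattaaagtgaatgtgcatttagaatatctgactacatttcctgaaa
Between genes, nearest start site 1700018B24Rik (chr3:48060901-48061101): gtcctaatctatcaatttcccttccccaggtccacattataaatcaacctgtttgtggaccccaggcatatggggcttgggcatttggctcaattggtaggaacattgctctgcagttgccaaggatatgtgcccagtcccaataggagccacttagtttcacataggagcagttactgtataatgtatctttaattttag

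The first of these, at chr15:16639749-16639916, had 32 tags, 12.3-fold enrichment and 27.2 for -log10 q, and its pileup was 4.63 times the lowest mutant pileup. The nearest start site, 88.9 kb away, was that of the cadherin gene Cdh9. The nearest mutant peak was 11.4 kb away, the nearest het peak 13.9 kb, and the nearest other WT peak 11.4 kb. The member at chr14:90323650-90323831 had 28 tags at 10.5-fold enrichment, with the nearest mutant peak at 6.38 kb. The member in an intron of Fam19a2, a gene of a secreted neuronal protein, had 29 tags at 9.69-fold enrichment, with a mutant peak of 9 tags at 5.04 kb. The member nearest to 1700018B24Rik had 23 tags at 8.96-fold enrichment. In these 4 windows every word of 76 bases was found once in the genome, and no repeat-masked base was present. The member nearest to AC144945.1 had 28 tags at 8.57-fold enrichment, and part of its window recurred in the genome at that word length. A WT peak of 31 tags lay 373 bp from it, and the mutant peak that overlaps this neighbour had 11 tags, the lowest ratio of mutant to WT (0.355) among the 903 tallest neighbours compared.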

How the data were processed

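ATAC-seq peak lists of P7 GNPs were used, 1 list for each Chd7 genotype. Per the labels, reads were trimmed with Trim Galore 0.4.1, duplicates handled with Picard 1.139 and peaks called with MACS2 2.1.0.20150731 on mm10, after alignment with STAR 2.5.0b (WT, mutant) or Bowtie 1.0.0 (het). The authors pooled the libraries of a genotype before calling at a q cutoff of 0.05, with tag extension of 90 bp (WT), 88 bp (mutant) and 200 bp (het), so het pileups are not on the scale of the others. The deposited pileup is a signal, the count of extended tags at the summit, not scaled to depth. The deposited fold enrichment is the ratio of pileup to local background, each with 1 added, and the -log10 q values are those of the authors. All columns had a group, and 0 were left without one.

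Local background was computed as pileup plus 1, divided by fold enrichment, minus 1. The lowest mutant pileup was taken over autosomal mutant peaks with a background within 5% of that of the WT peak. Distances run between peak edges. Summits were placed on GENCODE M21 genes, coding and long non-coding ones, in the order start site within 1 kb, exon, intron, intergenic. Sequence was read from GRCm38.p6, and no peak passed the end of any of 21 chromosomes. The distance, word and interval functions were tested on simulated data. Members and gene lists were chosen with earlier results of these data known. Named are the 20 members of highest pileup, all in genes of the study's 2 lists, up to 3 for each other list, those within 10 kb of each other and 3 at each edge of -log10 q at pileup 18. Alternatives changed the thresholds, distances, windows and gene assignment. Some members that fall under this rule are not reported here. No test was run, since no list gives libraries apart. Python 3.11.15, numpy, pandas and numba were used, with bedtools for the simulated check.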

Additional observations from a re-analysis of the deposited data

How the results depend on the processing

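No paired analysis was possible because each list pools the libraries of its genotype and holds no value for a single library. Leaving out each replicate was not run for the same reason. The number of members, 951, depended on the rule. With a pileup of 15 or more it was 2188 (2.56% of tall peaks), with 25 or more 174 (0.389%), with a partner distance of 1000 bp 534 (0.776%) and with 5000 bp 41 (0.0596%). With -log10 q of 10 or more in place of the pileup it was 129. With an overlap of 1 bp as a partner the share was 1.959%, and with the mutant list alone 1.84%, both with a count within 1.5 times of 951. Adding the sex chromosomes gave 973, and leaving out the first 3.2 Mb of each autosome, an alternative chosen after seeing the data, gave 944. Another WT peak lay within 5 kb of 93.7% of members and within 50 kb of 99.9%, and the share of neighbours with a mutant partner was 91.0% within 5 kb and 85.9% within 50 kb. Members in genes lower in mutant GNPs numbered 19, with assignment by nearest start site 24 and by gene body alone 18. The pileups that could be called in mutant limit what absence from its list shows, and het was shallower and extended more. The share between genes rose to 36.4% with protein-coding genes alone. Members at 2 times the lowest mutant pileup or more numbered 283 with backgrounds within 10%, against 244, also chosen after seeing the data.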
